A study of Homo sapiens with 12 samples.

Results

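The UM-SCC-6 line (SCC6) was compared, without drug, with UM-SCC-1 (SCC1) and SCC25, which like it come from squamous carcinomas of the head and neck (HNSCC). The comparison used the samples given PBS and summed the unique molecular identifiers (UMIs, 1 per captured RNA molecule) of all cells of a sample. It set 2 SCC6 samples against 2 SCC1 and 2 SCC25 samples. The SCC6 PBS samples held 5217 cells, of 13040 cells in the 6 PBS samples and 23914 cells in all 12 samples of the series. The question addressed was which genes set SCC6 apart before any treatment.

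All 3 are established human lines that grow as adherent epithelial cells. Each stands for the tumour of 1 donor, so a difference between lines is a difference between these lines and not between tumour classes. Every line received PBS, the vehicle, or cetuximab at 100 nM, an antibody against EGFR, the receptor of epidermal growth factor, each day for 5 days in medium with serum. Libraries came from the 10x Genomics 3′ kit, version 2, whose counts were made on GRCh38. The labels number 2 replicates per group without saying that they were separate cultures, so the p-values measure the spread between these samples, which may be technical.

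The SCC6 PBS samples had 2731 and 2486 cells, the SCC1 samples 1263 and 1666 and the SCC25 samples 2318 and 2576. A PBS library held between 62519572 and 112170073 UMIs, and the median cell of a library between 31947.5 and 52118.5. Pairs of PBS samples shared between 2 and 13 cell barcodes. Genes for ribosomal proteins took 32.1% and 26.4% of the UMIs in SCC6, 19.9% and 21.6% in SCC1 and 24.1% and 20.5% in SCC25, and the part of this share in any result below was not tested. Levels are given as CPM, the UMIs of a gene per 1000000 UMIs of the sample, scaled by trimmed mean of M values (TMM). The values of both replicates are given in order. Differences are log2 fold changes ± SE from edgeR's quasi-likelihood fit (n = 2 per line), and FDR is its Benjamini-Hochberg adjusted p-value. The fit gives no SE itself, so SE here is the absolute log2 fold change divided by the square root of the test's F statistic.

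Squamous carcinoma lines derive from stratified epithelium. Its basal cells carry the keratin pair KRT5 and KRT14 and attach to the basement membrane, while upper layers make other keratins and cornified envelope proteins. Simple epithelia instead use KRT8, KRT18 and KRT19. Against those markers SCC6 was epithelial but had almost none of the basal pair: EPCAM was at 176 and 289 CPM in SCC6, 236 and 375 in SCC1 and 82.6 and 189.7 in SCC25, the cadherin CDH1 at 41.9 and 25.4 CPM in SCC6 and the desmosomal plaque gene DSP at 151 and 102 CPM, whereas KRT5 and KRT14 lay near 1 CPM. The summed level of the 11 squamous epithelium markers, in CPM without TMM scaling, was 1831 and 1683 in SCC6 and between 7566 and 12600 in the other lines. Of these 11 markers, 5 were lower than in both other lines (FDR under 0.05 in each contrast) and 6 were not. Markers of other cell types were mostly low: the 7 fibroblast markers summed to 0.957 and 2.98 CPM in SCC6. Members without a UMI in SCC6 were PTPRC and CD3E of immune cells, KDR of endothelium and MLANA and TYR of melanocytes. ALB of liver and HBB of red cells had none either. The 4 melanocyte markers summed to 1.873 and 1.955 CPM in SCC6, 0.672 and 1.01 in SCC1 and 0.445 and 1.105 in SCC25. The 5 immune markers summed to 27.7 and 13.1 CPM in SCC6 against 9.49 to 11.7 in SCC1 and 164 and 188.7 in SCC25. Of the 2 immune markers tested, 1 was higher in SCC6 than in both other lines.

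Of 17229 genes tested, 1433 were higher in SCC6 than in both other lines, 8.32% of genes tested, and 1518 were lower than in both, 8.81%. These shares are the background for the counts of members below. A call here means FDR under 0.05 in both contrasts with the same sign. Against SCC1 alone 6278 genes differed (36.4%), with 3501 higher and 2777 lower in SCC6, and against SCC25 alone 6445 differed (37.4%), with 2807 higher and 3638 lower. SCC1 and SCC25 differed from each other at 6381 genes (37%), a count between those of SCC6 against either line. Over the 500 genes that differed most in a pair, the root mean square log2 difference was 2.02 between the SCC6 replicates and between 6.93 and 7.3 for samples of different lines. The median over all genes tested was 0.02 on the log2 scale against SCC1 and -0.01 against SCC25. Scaled by library totals instead of TMM, an alternative added after seeing the data, these medians became -0.32 and -0.14, and the calls were 1023 higher and 1994 lower, so that 33.9% of them were higher instead of 48.6%. With the replicate number as a block, 2304 genes were higher and 2179 lower.

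**Figure D1:**
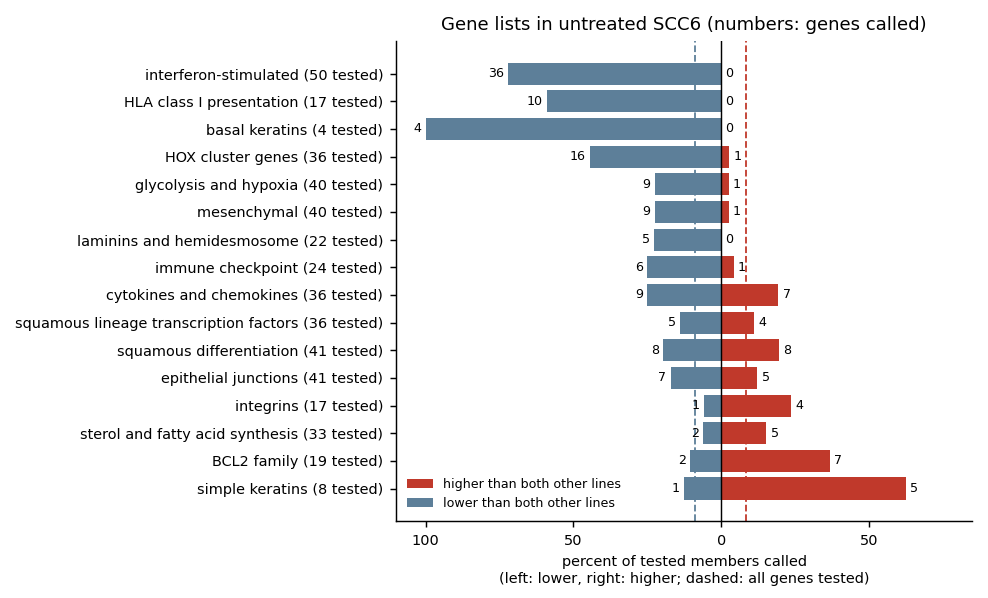
Share of the tested members of selected gene lists called higher or lower in SCC6 PBS than in both SCC1 PBS and SCC25 PBS (percent of members, x axis), 1 pair of bars per list. Other lists, some without any call, are not shown. Interferon-stimulated genes (36 of 50 lower), HLA class I presentation (10 of 17 lower) and HOX genes (16 of 36 lower) stand far above the background of 8.81% lower.

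The keratin profile of SCC6 differed from that of both other lines in its basal, simple and hair-type members. KRT14, the basal type I keratin, was at 0.896 and 0.412 CPM in SCC6, 1098 and 1299 in SCC1 and 2491 and 4591 in SCC25. Its partner KRT5 was at 1.11 and 1.57 CPM in SCC6, 315 and 549.9 in SCC1 and 974 and 2240.5 in SCC25. Both genes were near 1 CPM in each SCC6 sample, and the lowest value of either in the other lines was 315 CPM. The log2 fold changes of KRT14 were -10.84 ± 0.61 against SCC1 and -12.40 ± 0.64 against SCC25 (larger FDR = 4.4e-05), and those of KRT5 were -8.33 ± 0.60 against SCC1 and -10.22 ± 0.65 against SCC25 (larger FDR = 9.7e-05). KRT13, a keratin of suprabasal layers of oral mucosa, was at 21.8 and 14.3 CPM in SCC6, 347 and 493 in SCC1 and 102 and 649.8 in SCC25, with the SCC25 samples far apart. Its log2 fold changes were -4.54 ± 0.82 against SCC1 and -4.38 ± 0.81 against SCC25 (larger FDR = 0.0052). All 4 basal keratins were lower in SCC6, the others being KRT15 at 23.3 and 12.7 CPM and KRT17 at 887 and 477 CPM. The call of KRT15 was lost without SCC1 replicate 2 or SCC6 replicate 2 (FDR up to 0.11).

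KRT81, a hair-type keratin, had the highest rank among the genes raised in SCC6. It was at 5115 and 6080.5 CPM in SCC6, 0.611 and 0.789 in SCC1 and 73.6 and 50.6 in SCC25. The log2 fold changes were 12.96 ± 0.43 against SCC1 and 6.49 ± 0.34 against SCC25 (larger FDR = 4e-05). The neighbouring and closely related KRT86 was at 19.2 and 18.9 CPM in SCC6, 0.571 and 0.439 in SCC1 and 4.62 and 3.57 in SCC25, and reads shared by such similar genes may have been split or dropped in counting. KRT80 was at 169.7 and 115 CPM in SCC6, 12.5 and 10.2 in SCC1 and 36.8 and 20.5 in SCC25 (log2 3.65 and 2.31, larger FDR = 0.0023). Of the simple epithelial pair, KRT8 was at 3779 and 3412 CPM in SCC6, 1251 and 1724 in SCC1 and 818 and 1417 in SCC25. KRT18 was at 4175 and 3673 CPM in SCC6, 2044 and 2061 in SCC1 and 1320.5 and 1694 in SCC25. Both samples of SCC6 exceeded all samples of the other lines for each, but the calls were lost for KRT8 without SCC1 replicate 1 or SCC6 replicate 1 (FDR up to 0.11) and for KRT18 without SCC1 replicate 1, SCC1 replicate 2 or SCC6 replicate 1 (FDR up to 0.11), and KRT18 was not called with library totals. KRT7, a keratin of simple and glandular epithelia, went the other way, at 435 and 317 CPM in SCC6, 2679.9 and 3255 in SCC1 and 937 and 1358 in SCC25 (log2 -2.98 and -1.61, larger FDR = 0.0043). In all, 5 of 8 simple and hair-type keratins were higher, 1 was lower and 2 were not called (3 higher without SCC1 replicate 1 or SCC6 replicate 1). Against SCC1 alone 5 were higher and 2 lower, and against SCC25 alone 5 were higher and 1 lower. The level of KRT19 is not reported here. None of the 5 stress and wound keratins was called. KRT6A, of that group, was at 23.05 and 17.1 CPM in SCC6, 29.9 and 31.6 in SCC1 and 799 and 1175 in SCC25, so SCC6 and SCC1 were both low. Keratin genes together took 1.56% and 1.55% of the UMIs of SCC6, within the range of the other lines (1.05% to 1.78%).

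**Figure D2:**
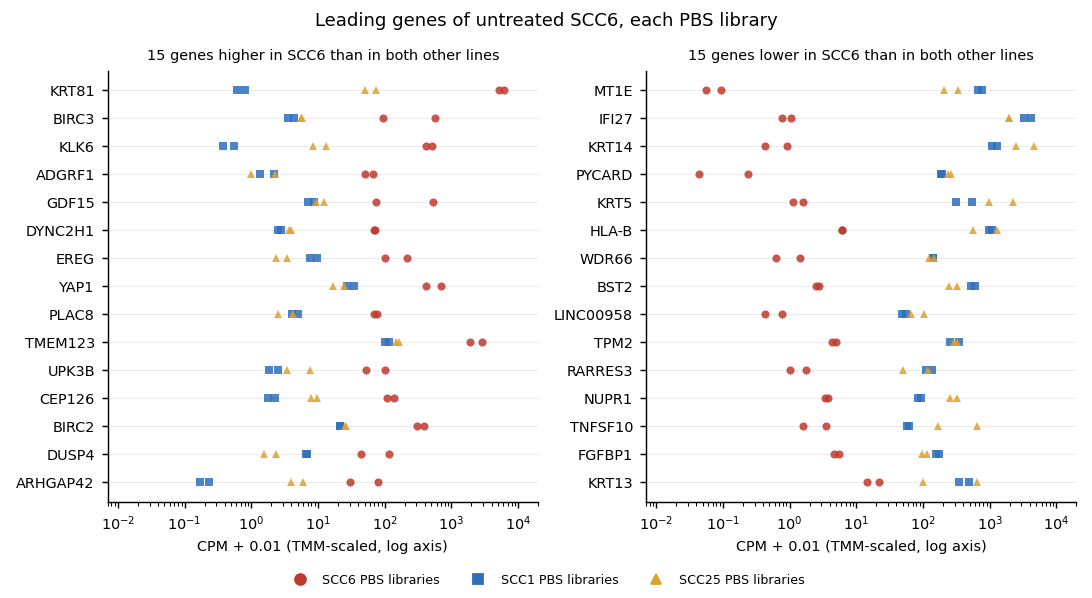
Levels of the 15 genes raised and the 15 genes lowered most in SCC6, by the smaller of their 2 log2 fold changes, in each PBS sample (CPM plus 0.01, log axis). Points are samples coloured by line. The SCC6 points lie apart from those of both other lines for all 30 genes, which the choice of genes fixes.

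Genes of squamous differentiation split in both directions. Of 41 tested, 8 were higher and 8 lower (medians 0.95 against SCC1 and 0.37 against SCC25). The higher ones included secreted proteins: KLK6, a kallikrein protease, was at 416 and 518 CPM in SCC6, 0.372 and 0.549 in SCC1 and 8.46 and 13.4 in SCC25, with log2 fold changes of 9.97 ± 0.44 against SCC1 and 5.42 ± 0.36 against SCC25 (larger FDR = 8.3e-05). SLPI, a protease inhibitor of mucosal secretions, was at 578 and 431 CPM in SCC6, 27.9 and 24.96 in SCC1 and 33.1 and 95.6 in SCC25 (log2 4.26 and 2.97, larger FDR = 0.003), and S100A9, a subunit of calprotectin, at 209 and 198 CPM in SCC6, 28.6 and 11.9 in SCC1 and 15.7 and 24.8 in SCC25 (larger FDR = 0.0014). The lower ones included SERPINB13, a serpin of squamous cells, at 0.218 and 0.169 CPM in SCC6, 2.91 and 2.96 in SCC1 and 5.83 and 8.19 in SCC25 (larger FDR = 0.0002). TGM1, which crosslinks the cornified envelope, was at 0.758 and 0.728 CPM in SCC6, 3.32 and 3.15 in SCC1 and 3.35 and 8.07 in SCC25 (larger FDR = 0.0079). SERPINB3 was at 0.276 and 0.243 CPM in SCC6, 2.23 and 5.59 in SCC1 and 4.14 and 11.1 in SCC25, and its reads cannot be fully told from those of SERPINB4. Leaving out 1 library kept 6 to 7 of the 8 higher genes and 4 to 7 of the 8 lower genes, with 4 kept without SCC6 replicate 2 and 5 without SCC1 replicate 2 or SCC6 replicate 1.

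Cell junction genes were also called in both directions, but only the lower calls all remained with 1 library left out. Of the list 17.1% were lower and 12.2% higher, against 8.8% and 8.3% of all genes tested (medians 0.02 against SCC1 and 0.01 against SCC25). DSG3, a desmosomal cadherin of stratified epithelium, was lower at 0.264 and 0.158 CPM in SCC6, 9.68 and 8.48 in SCC1 and 28.6 and 30.1 in SCC25. The desmosomal plaque gene PKP1 was lower at 0.115 and 0.0633 CPM in SCC6, 10.4 and 13.9 in SCC1 and 40.3 and 51.9 in SCC25. Their log2 fold changes were -5.42 ± 0.34 against SCC1 and -7.12 ± 0.36 against SCC25 (larger FDR = 5.8e-05) and -7.08 ± 0.41 against SCC1 and -9.01 ± 0.43 against SCC25 (larger FDR = 4.7e-05). The gap junction genes GJB2 at 0.505 and 0.359 CPM, GJB6 at 0.149 and 0.179 CPM and GJA1 at 0.0115 and 0.0844 CPM were lower as well (larger FDR = 6.4e-05, 6.6e-05 and 0.00037). None of these 5 genes reached 1 CPM in an SCC6 sample, while each exceeded 1 CPM in all samples of the other lines. CLDN4, a tight junction claudin, was higher at 192 and 562 CPM in SCC6, 61.2 and 74.8 in SCC1 and 20.1 and 56.1 in SCC25, but the call was lost without SCC1 replicate 1 or SCC6 replicate 2 (FDR up to 0.089). Of 41 junction genes tested, 7 were lower and remained so whichever library was left out, and 5 were higher, of which 2 to 4 remained (2 without SCC6 replicate 1). At the basement membrane, COL17A1 of hemidesmosomes was at 11.6 and 9.93 CPM in SCC6, 40.9 and 37.1 in SCC1 and 80.2 and 59.5 in SCC25 (log2 -1.86 and -2.70, larger FDR = 0.0012), and the laminin chain LAMA1 at 0 and 0.0211 CPM in SCC6, 4.81 and 3.67 in SCC1 and 5.80 and 3.95 in SCC25 (larger FDR = 0.00013). In this list 5 of 22 genes were lower and none higher, among them the collagen genes COL4A5 and COL4A6 of the X chromosome run described below. Of 17 integrins, 4 were higher, of which 0 to 3 remained with 1 library left out (0 without SCC1 replicate 2, 1 without SCC1 replicate 1 or SCC6 replicate 1, 2 without SCC25 replicate 2) and 1 with library totals. ITGA5, part of the fibronectin receptor, was the 1 integrin lower, at 2.93 and 3.31 CPM in SCC6, 8.69 and 7.87 in SCC1 and 26.8 and 14.5 in SCC25, and its call was lost without SCC1 replicate 1 or SCC6 replicate 1 (FDR up to 0.073).

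Among 36 lineage transcription factors, 4 were higher and 5 lower. SOX4 was at 388 and 345 CPM in SCC6, 41.2 and 32.2 in SCC1 and 105 and 93.1 in SCC25, with log2 fold changes of 3.32 ± 0.25 against SCC1 and 1.89 ± 0.23 against SCC25 (larger FDR = 0.00098). GATA3, a factor of luminal and urothelial cells, was at 79.9 and 57.3 CPM in SCC6, 3.06 and 2.24 in SCC1 and 7.23 and 24.3 in SCC25, and its call was lost without SCC6 replicate 1 (FDR up to 0.077). ZNF750, which drives terminal squamous differentiation, was at 0.0804 and 0.169 CPM in SCC6, 10.2 and 13.4 in SCC1 and 0.787 and 2.89 in SCC25, with log2 fold changes of -6.54 ± 0.74 against SCC1 and -3.86 ± 0.70 against SCC25 (larger FDR = 0.0046). TP63, the master factor of squamous epithelium, was at 13.6 and 6.61 CPM in SCC6, 21.8 and 15.04 in SCC1 and 69.8 and 31.2 in SCC25, and passed the test against SCC25 (FDR = 0.0087) but not SCC1 (FDR = 0.19), while with the replicate block it was called lower (larger FDR = 0.0039). TFAP2A was at 52.0 and 53.7 CPM in SCC6, 121 and 125 in SCC1 and 58.3 and 53.5 in SCC25, below SCC1 and level with SCC25, and was not called. With 1 library left out, 1 to 4 of the higher and 1 to 5 of the lower factors remained (1 of each without SCC6 replicate 1, and 1 lower without SCC1 replicate 2), and the block gave 5 higher and 8 lower.

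Of 40 genes of the mesenchymal list tested, 9 were lower in SCC6, 1 was higher and 30 were not called, with medians of -0.06 against SCC1 and -2.02 against SCC25. TPM2, a tropomyosin of actin filaments, was at 4.95 and 4.34 CPM in SCC6, 255 and 346 in SCC1 and 288 and 327 in SCC25, with log2 fold changes of -6.02 ± 0.30 against SCC1 and -6.05 ± 0.30 against SCC25 (larger FDR = 3.6e-05). The matrix protein gene SPARC was at 0.0460 and 0.106 CPM in SCC6, 156 and 158 in SCC1 and 0.399 and 0.659 in SCC25, so that it was far below SCC1 but under 1 CPM in SCC25 too. IGFBP3, which binds insulin-like growth factors, was at 62.0 and 19.9 CPM in SCC6, 435 and 319 in SCC1 and 316 and 354 in SCC25 (log2 -3.20 and -3.03, larger FDR = 0.0034). The 1 higher gene, IGFBP5, was at 2.75 and 21.8 CPM in SCC6, 0.0531 and 0.0399 in SCC1 and 0.690 and 0.258 in SCC25, and the SCC6 samples were far apart in it. VIM, the intermediate filament of mesenchymal cells, was intermediate: at 32.3 and 90.0 CPM in SCC6, 1.93 and 6.28 in SCC1 and 368 and 261 in SCC25, SCC6 lay above SCC1 (log2 3.89, FDR = 0.004) and below SCC25 (log2 -2.36, FDR = 0.023). Between 6 and 8 of the 9 lower genes remained with 1 library left out, the fewest without SCC6 replicate 1.

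Genes induced by interferon were lower in SCC6 as a group. Interferons act through factors that include STAT2 and IRF9 and bind a short promoter element called the interferon-stimulated response element (ISRE). The antiviral and antigen presentation genes they induce are known to be active in some tumour cells without added interferon. Of 50 such genes tested, 36 were lower in SCC6 than in both other lines and none was higher (medians -3.94 against SCC1 and -2.83 against SCC25). The promoters of 4 of the lowered genes are shown because their values are described next and each holds more than 1 match of the element. They are taken from RefSeq on GRCh38.p14, 5′ to 3′ on the strand of the gene, with matches of the ISRE core GAAANNGAA on either strand in capitals.
IFI27: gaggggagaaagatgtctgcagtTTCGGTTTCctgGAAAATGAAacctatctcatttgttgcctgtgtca
ISG15: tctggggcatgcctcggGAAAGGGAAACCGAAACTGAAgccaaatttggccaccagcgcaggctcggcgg
BST2: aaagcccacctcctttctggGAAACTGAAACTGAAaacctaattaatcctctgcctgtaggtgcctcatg
IFI6: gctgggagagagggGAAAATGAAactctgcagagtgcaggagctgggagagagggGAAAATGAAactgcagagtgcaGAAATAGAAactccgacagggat
The windows are chr14:94110606-94110675 (forward strand), chr1:1013367-1013436 (forward strand), chr19:17405711-17405780 (reverse strand) and chr1:27672263-27672362 (reverse strand), each upstream of the 1 start of transcription used for that gene. The IFI27 window lies inside the full RefSeq span of the gene (chr14:94105894-94116690), which begins further upstream. They hold 2, 3, 2 and 3 matches, and matches may overlap, as they do in ISG15 and BST2.

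A RefSeq promoter (250 bases before to 50 after the start) was found for 30 of the 36 lowered interferon genes, and 18 of these held the ISRE core (60.0%). The core was also in 9 of 10 promoters of interferon genes that were not called (90.0%). It was in 103 of 1041 promoters of all genes lower in SCC6 (9.89%), 49 of 1016 of all genes higher (4.82%), 788 of 12256 of all genes tested (6.43%) and 2264 of 27305 promoters in the table (8.29%). The GAS core TTCNNNGAA, another interferon element, was in 10 of the 30 (33.3%) against 6.32% of genes tested. The AP-1 core TGANTCA was in 3 of the 30 (10.0%) against 5.22%, the TFAP2 core GCCNNNGGC in 7 (23.3%) against 31.4% and the TEAD core GGAATG in 6 (20%) against 11.3%. Each letter match is a description and not a site of binding, and both strands were searched.

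IFI27, whose promoter holds a pair of core matches, was at 0.758 and 1.06 CPM in SCC6, 4185 and 3226 in SCC1 and 1968 and 1931 in SCC25. It was among the most abundant interferon genes in the other lines and near 1 CPM in SCC6. This gave log2 fold changes of -11.99 ± 0.40 against SCC1 and -11.07 ± 0.38 against SCC25 (larger FDR = 2.4e-05). ISG15, the ubiquitin-like modifier attached to proteins during infection, was at 55.3 and 68.9 CPM in SCC6, 2129 and 1048 in SCC1 and 717 and 804 in SCC25, so it remained expressed in SCC6 but below every sample of the other lines (log2 -4.68 and -3.62, larger FDR = 0.00046). BST2, also called tetherin, which holds budding virus at the cell surface, was at 2.77 and 2.49 CPM in SCC6, 608 and 521 in SCC1 and 247 and 321 in SCC25. Its log2 fold changes were -7.74 ± 0.31 against SCC1 and -6.75 ± 0.30 against SCC25 (larger FDR = 3.3e-05). IFI6 was at 3.41 and 6.28 CPM in SCC6, 899 and 506 in SCC1 and 99.7 and 99.3 in SCC25 (log2 -7.18 and -4.36, larger FDR = 0.00033).

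The transcription factors of the pathway were lowered unequally. IRF7, which amplifies interferon production, had 1 UMI in the SCC6 samples together, against 22817 in SCC1 and 7483 in SCC25, a ratio of 23639.3 (95% interval 4242.8 to 933703) for SCC1 over SCC6 and 7258.5 (95% interval 1302.8 to 286696) for SCC25 over SCC6. IRF9, the DNA-binding part of the STAT complex, was at 1.84 and 1.07 CPM in SCC6, 16.3 and 6.86 in SCC1 and 15.6 and 10.2 in SCC25 (log2 -2.99 and -3.15, larger FDR = 0.0032). STAT2 was at 8.93 and 7.30 CPM in SCC6, 21.3 and 12.5 in SCC1 and 18.8 and 20.2 in SCC25, a smaller difference whose call was lost without SCC1 replicate 1, SCC6 replicate 1 or SCC6 replicate 2 (FDR up to 0.28).

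Antiviral effectors were lowered as well. OAS2, an activator of RNase L, was at 0.0230 and 0.222 CPM in SCC6, 74.5 and 39.3 in SCC1 and 23.4 and 24.4 in SCC25, XAF1 at 0.0804 and 0.0528 CPM in SCC6, 72.2 and 48.7 in SCC1 and 18.3 and 20.7 in SCC25 and RSAD2, or viperin, at 0.0115 and 0.137 CPM in SCC6, 42.9 and 20.6 in SCC1 and 3.15 and 4.24 in SCC25. All 3 were at 0.222 CPM or less in each SCC6 sample and at 3.15 CPM or more in each sample of the other lines (larger FDR = 0.00036, 3.6e-05 and 0.0012). The chemokines that attract T cells were also lower: CXCL10 was at 0.0230 and 0.0211 CPM in SCC6, 22.7 and 8.87 in SCC1 and 8.07 and 13.4 in SCC25 (larger FDR = 0.00019). CCL5 was at 0.0574 and 0.148 CPM in SCC6, 19.3 and 8.67 in SCC1 and 18.2 and 23.3 in SCC25 (larger FDR = 0.00017). MX1 and MX2 were exceptions of another kind. MX1 was at 1.44 and 2.68 CPM in SCC6, 198 and 168 in SCC1 and 0 and 0.0191 in SCC25, so SCC6 lay between the other lines, and SCC25 had almost none. IFIT1 was at 1.25 and 10.6 CPM in SCC6, 136 and 103 in SCC1 and 17.4 and 53.5 in SCC25, and its difference from SCC25 did not pass (FDR = 0.058), though it was called lower with the replicate block (larger FDR = 0.006). Of the 36 lowered genes, 31 to 36 remained with 1 library left out. In the SCC6 samples given cetuximab, set against cetuximab samples of the other lines, 45 of the list were lower.

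**Figure D3:**
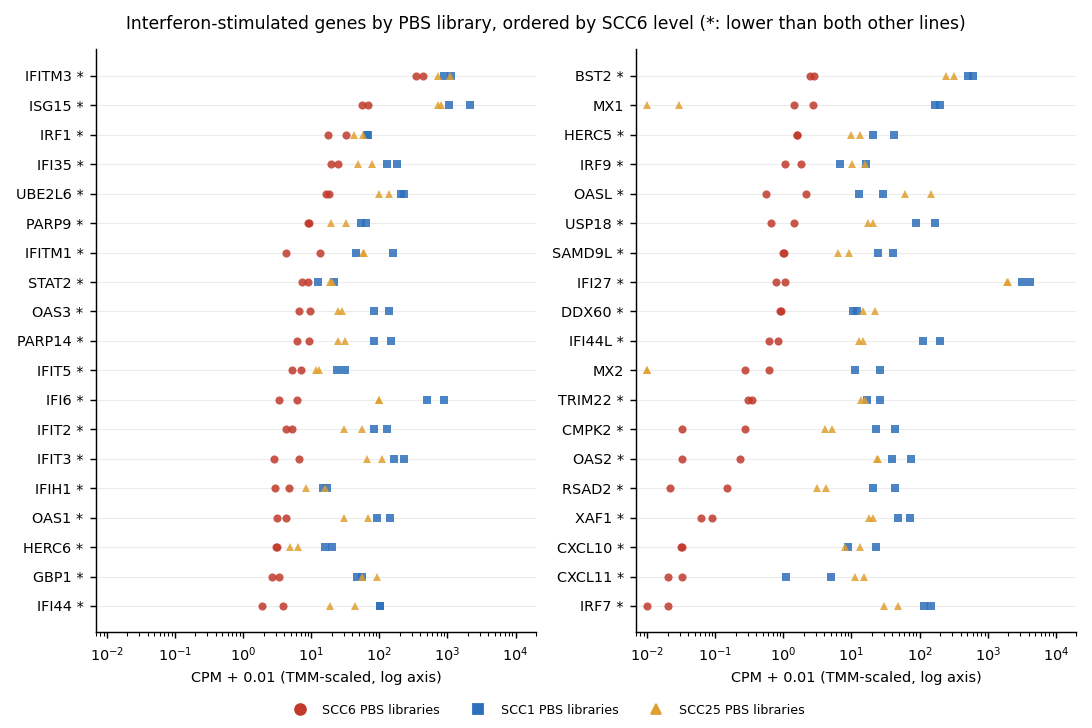
Levels of the 36 interferon-stimulated genes called lower in SCC6, with MX1 and MX2, in each PBS sample (CPM plus 0.01, log axis), 1 row per gene, points coloured by line. SCC6 points lie to the left of both other lines for the 36 called genes. MX1 and MX2 are near 0 in SCC25, and for MX1 the SCC25 points lie below those of SCC6.

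Antigen presentation by HLA class I, which shows peptides to cytotoxic T cells, was lowered as well. Of 17 genes tested, 10 were lower and none higher (medians -1.6 and -1.44), and 8 to 10 of them remained with 1 library left out. HLA-B was at 6.04 and 6.18 CPM in SCC6, 967 and 1079.5 in SCC1 and 567 and 1284 in SCC25, and the lowest value outside SCC6 was 567 CPM. The log2 fold changes were -7.39 ± 0.48 against SCC1 and -7.24 ± 0.47 against SCC25 (larger FDR = 8.2e-05). B2M, the light chain of every class I molecule, was at 959.7 and 829 CPM in SCC6, 3379 and 2953 in SCC1 and 2174 and 3044 in SCC25 (log2 -1.82 and -1.54, larger FDR = 0.0031). PSMB9, a subunit of the immunoproteasome, was at 21.7 and 14.9 CPM in SCC6, 284 and 260.4 in SCC1 and 166 and 251 in SCC25 (log2 -3.89 and -3.51, larger FDR = 0.00025), and TAP1, which carries peptides into the endoplasmic reticulum, at 14.2 and 15.8 CPM in SCC6, 78.1 and 79.5 in SCC1 and 35.0 and 62.2 in SCC25 (larger FDR = 0.0045). HLA genes are highly alike and vary between donors, so their levels depend on how reads matched the reference. TAP2 was at 19.3 and 34.0 CPM in SCC6, 73.6 and 85.3 in SCC1 and 20.9 and 30.7 in SCC25, level with SCC25. The ISRE core was in 3 of 8 promoters of the lowered class I genes (37.5%).

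Other genes of innate immunity and cell death were among the genes lowered most. PYCARD, the adaptor of inflammasomes, was at 0.0345 and 0.232 CPM in SCC6, 192 and 187 in SCC1 and 239 and 262 in SCC25, with log2 fold changes of -10.43 ± 0.68 against SCC1 and -10.84 ± 0.69 against SCC25 (larger FDR = 7.3e-05). CARD16, a regulator of caspase-1, was at 1.03 and 0.707 CPM in SCC6, 13.5 and 29.4 in SCC1 and 21.3 and 62.5 in SCC25 (larger FDR = 0.0015), and the inflammasome product IL18 at 49.9 and 46.0 CPM in SCC6, 169 and 170.1 in SCC1 and 69.1 and 102 in SCC25, with the call lost without SCC1 replicate 1, SCC1 replicate 2, SCC6 replicate 1, SCC6 replicate 2 or SCC25 replicate 2 (FDR up to 0.16). TNFSF10, the death ligand TRAIL, was at 1.61 and 3.46 CPM in SCC6, 61.4 and 57.3 in SCC1 and 166 and 641 in SCC25. This gave log2 fold changes of -4.55 ± 0.69 against SCC1 and -7.31 ± 0.78 against SCC25 (larger FDR = 0.0021), and the SCC25 samples differed widely. The complement proteases C1R at 0.471 and 1.45 CPM and C1S at 0.632 and 1.22 CPM were below 2 CPM in SCC6 and at 12.7 CPM or more in all other samples (larger FDR = 0.002 and 0.00084). CD70, a ligand of the T cell receptor CD27, was at 0.0115 and 0.0211 CPM in SCC6, 68.5 and 105 in SCC1 and 14.3 and 20.8 in SCC25 (larger FDR = 4e-05), and TNFRSF14 at 0.0689 and 0.0317 CPM in SCC6, 2.74 and 2.75 in SCC1 and 10.7 and 17.0 in SCC25 (larger FDR = 0.00013). Of 24 checkpoint genes, 6 were lower and 1 higher, with 3 to 5 of the lower genes remaining when 1 library was left out (3 without SCC1 replicate 1 or SCC6 replicate 1). The 1 higher gene was not called with library totals or without either SCC1 replicate.

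Cytokines moved both ways, with 7 of 36 higher and 9 lower. With library totals 3 of the 7 higher and all 9 lower genes kept their call. IL6 was at 0.505 and 0.201 CPM in SCC6, 21.5 and 13.8 in SCC1 and 7.55 and 7.05 in SCC25, with log2 fold changes of -5.65 ± 0.49 against SCC1 and -4.37 ± 0.47 against SCC25 (larger FDR = 0.00051), while LIF, a cytokine of the same family, was at 42.8 and 21.3 CPM in SCC6, 7.84 and 5.94 in SCC1 and 0.968 and 1.18 in SCC25, with log2 fold changes of 2.22 ± 0.37 against SCC1 and 4.89 ± 0.42 against SCC25 (larger FDR = 0.0033). The neutrophil chemokines also went apart. CXCL1 was at 0.0460 and 0.0633 CPM in SCC6, 50.6 and 65.8 in SCC1 and 17.1 and 14.9 in SCC25 (log2 -10.02 and -8.15, larger FDR = 3.3e-05), whereas CXCL3 was at 73.3 and 15.3 CPM in SCC6, 3.12 and 2.94 in SCC1 and 2.74 and 3.62 in SCC25 (larger FDR = 0.0044). CXCL1 and CXCL3 have similar sequences, so counting of their reads is uncertain. Between 2 and 7 of the higher and 6 and 8 of the lower genes remained with 1 library left out, with 2 higher genes without SCC6 replicate 1 or SCC25 replicate 2, 4 without either SCC1 replicate and 6 lower genes without either SCC6 replicate.

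EGFR, the target of cetuximab, did not set SCC6 apart. It was at 99.5 and 82.9 CPM in SCC6, 58.9 and 70.6 in SCC1 and 86.0 and 108 in SCC25, and none of 6 ERBB receptor and inhibitor genes was called. Among 10 ligands of the family, EREG, or epiregulin, was higher at 213 and 102 CPM in SCC6, 7.598 and 9.73 in SCC1 and 3.47 and 2.32 in SCC25, with log2 fold changes of 4.18 ± 0.43 against SCC1 and 5.77 ± 0.47 against SCC25 (larger FDR = 0.00038). The lower SCC6 sample was at 102 CPM and the highest other sample at 9.73 CPM. AREG, or amphiregulin, was at 594 and 125 CPM in SCC6, 231 and 211 in SCC1 and 59.8 and 31.7 in SCC25, and the SCC6 samples spanned the SCC1 values. HBEGF was at 141 and 22.7 CPM in SCC6, 9.88 and 8.47 in SCC1 and 19.7 and 17.3 in SCC25, a call that rested on SCC6 replicate 1 and was lost without SCC6 replicate 1, SCC25 replicate 1 or SCC25 replicate 2 (FDR up to 0.43). NRG1, a ligand of ERBB3 and ERBB4, was lower at 10.8 and 4.32 CPM in SCC6, 41.1 and 27.5 in SCC1 and 94.2 and 42.0 in SCC25, but not without SCC1 replicate 1 or SCC6 replicate 2 (FDR up to 0.072).

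Of 33 feedback and output genes of the MAPK pathway below EGFR, 4 were higher and 2 lower. DUSP4, a phosphatase induced by and acting on ERK, was at 116 and 44.6 CPM in SCC6, 6.85 and 6.50 in SCC1 and 2.32 and 1.54 in SCC25, with log2 fold changes of 3.59 ± 0.48 against SCC1 and 5.38 ± 0.52 against SCC25 (larger FDR = 0.0012). The related DUSP6 went down, at 10.8 and 15.5 CPM in SCC6, 23.1 and 25.6 in SCC1 and 48.0 and 57.9 in SCC25, and its call was lost without SCC1 replicate 1, SCC1 replicate 2 or SCC6 replicate 1 (FDR up to 0.18). SPRED2, an inhibitor of RAF activation, was at 8.12 and 6.45 CPM in SCC6, 25.5 and 20.7 in SCC1 and 27.2 and 17.9 in SCC25 (log2 -1.66 and -1.63, larger FDR = 0.0046). With 1 library left out 1 to 4 of the higher genes remained (1 without SCC6 replicate 1 or SCC25 replicate 2, 2 without either SCC1 replicate), and the block gave 8 higher and 3 lower. With library totals 1 of the 4 kept its call. Of 28 other receptor tyrosine kinases, 4 were higher and 3 lower. FGFR2 was at 1.23 and 1.55 CPM in SCC6, 4.72 and 3.71 in SCC1 and 10.1 and 9.56 in SCC25 (larger FDR = 0.0035), and the bypass receptor AXL was at 93.8 and 95.02 CPM in SCC6, 158 and 110.3 in SCC1 and 94.1 and 43.0 in SCC25 and not called. With library totals 1 of the 4 higher and all 3 lower kinases kept their call. None of the 4 higher kinases remained without SCC6 replicate 1, and 1 to 3 remained without another library (1 without SCC25 replicate 2, 2 without SCC1 replicate 1, SCC1 replicate 2 or SCC25 replicate 1).

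Secreted growth factors had 4 of 49 members higher and 7 lower. GDF15, a stress-induced member of the TGF-beta family, was at 529 and 75.1 CPM in SCC6, 7.05 and 8.82 in SCC1 and 9.34 and 12.1 in SCC25, so the SCC6 replicates stood apart and both exceeded all other samples. Its log2 fold changes were 5.25 ± 0.86 against SCC1 and 4.82 ± 0.84 against SCC25 (larger FDR = 0.0041). INHBB, an activin subunit, was at 9.66 and 5.68 CPM in SCC6, 0 and 0.0200 in SCC1 and 0.363 and 0.353 in SCC25 and WNT10B at 3.14 and 2.84 CPM in SCC6, 0.239 and 0.210 in SCC1 and 0.169 and 0.162 in SCC25 (larger FDR = 0.00044 and 0.00026). FGFBP1, which releases fibroblast growth factors from the matrix, was lower at 5.41 and 4.69 CPM in SCC6, 172 and 158 in SCC1 and 98.2 and 114 in SCC25, with log2 fold changes of -5.03 ± 0.26 against SCC1 and -4.39 ± 0.25 against SCC25 (larger FDR = 5.4e-05). DKK3 was at 3.87 and 4.61 CPM in SCC6, 43.96 and 49.5 in SCC1 and 97.2 and 126 in SCC25, VEGFC at 8.81 and 9.87 CPM in SCC6, 35.6 and 35.1 in SCC1 and 61.8 and 49.1 in SCC25 and the NOTCH ligand DLL1 at 1.67 and 1.74 CPM in SCC6, 9.48 and 13.4 in SCC1 and 11.96 and 13.6 in SCC25 (larger FDR = 0.00011, 0.00079 and 0.00036). All 4 of the higher genes and 6 to 7 of the lower genes remained whichever library was left out, and the block gave 7 higher and 11 lower.

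A short stretch of the long arm of chromosome 11 held raised genes next to each other, although over that whole arm 36 of 565 genes were higher (6.37%) and 62 lower (11%). YAP1 (chr11:102110447-102233424 on GRCh38.p14), the transcriptional effector of the Hippo pathway, was at 698 and 418 CPM in SCC6, 34.5 and 27.6 in SCC1 and 24.2 and 16.8 in SCC25. The log2 fold changes were 4.17 ± 0.36 against SCC1 and 4.77 ± 0.37 against SCC25 (larger FDR = 0.00018). Next to it lie the inhibitors of apoptosis BIRC3 (chr11:102317484-102339403) and BIRC2 (chr11:102347214-102378670). BIRC2 was at 388 and 305 CPM in SCC6, 21.5 and 21.4 in SCC1 and 25.3 and 26.3 in SCC25, with log2 fold changes of 4.01 ± 0.25 against SCC1 and 3.75 ± 0.24 against SCC25 (larger FDR = 8e-05). BIRC3 was at 568 and 95.5 CPM in SCC6, 4.38 and 3.50 in SCC1 and 5.74 and 5.55 in SCC25, with the SCC6 replicates far apart and both above every other sample, and its log2 fold changes were 6.39 ± 0.84 against SCC1 and 5.88 ± 0.82 against SCC25 (larger FDR = 0.0016). TMEM123 (chr11:102396332-102452765), a receptor in a form of cell death called oncosis, was the most abundant of the group at 2909.5 and 1924 CPM in SCC6, 118 and 102 in SCC1 and 147 and 165 in SCC25. This gave log2 fold changes of 4.46 ± 0.30 against SCC1 and 3.96 ± 0.29 against SCC25 (larger FDR = 0.00012).

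The raised genes extended on both sides. Before YAP1, the centrosomal gene CEP126 was at 136 and 108 CPM in SCC6, 2.23 and 1.77 in SCC1 and 9.82 and 7.82 in SCC25 (log2 5.93 and 3.79, larger FDR = 0.00012), and ARHGAP42 at 78.7 and 30.5 CPM in SCC6, 0.159 and 0.220 in SCC1 and 5.91 and 3.88 in SCC25 (larger FDR = 0.0016). After the proteinase genes, DCUN1D5, a cofactor of cullin neddylation, was at 802 and 996 CPM in SCC6, 94.2 and 103 in SCC1 and 117 and 134 in SCC25 (log2 3.19 and 2.84, larger FDR = 0.00019), and DYNC2H1 (chr11:103109426-103479863), the dynein motor of cilia, at 71.0 and 68.9 CPM in SCC6, 2.78 and 2.48 in SCC1 and 3.95 and 3.69 in SCC25 (log2 4.74 and 4.20, larger FDR = 5.9e-05). CNTN5, PGR and CFAP300 were also called higher (PGR not without SCC25 replicate 2 (FDR up to 0.051), and CFAP300 neither without SCC1 replicate 1, SCC1 replicate 2, SCC6 replicate 1, SCC6 replicate 2, SCC25 replicate 1 or SCC25 replicate 2 (FDR up to 0.17) nor with library totals), so that 11 of the 18 tested genes between CNTN5 and PDGFD were higher and 0 lower. The 7 others were 6 matrix metalloproteinase genes (MMP1, MMP3, MMP7, MMP10, MMP12 and MMP13), which lie between TMEM123 and DCUN1D5, and PDGFD at the far end. MMP13, for example, was at 20.6 and 41.6 CPM in SCC6, 0.0797 and 0.0599 in SCC1 and 26.5 and 130 in SCC25. Against SCC1 the log2 fold changes were 8.79 for MMP13, 6.97 for MMP7, 5.7 for MMP1, 2.22 for MMP12 and -0.12 for MMP3. MMP10 had no UMI in SCC1 and 496 in SCC6. Against SCC25 the log2 fold changes of all 6 were negative, so most of these genes were above SCC1 but none was above SCC25. DNA copy number was not measured here, and whether it differs at this site was not tested.

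The level of YAP1 was also seen cell by cell. With each cell thinned to 15000 UMIs, YAP1 was found in 99.8% of SCC6 cells of replicate 1 (95% exact binomial interval 99.5% to 99.9%) and 99.3% of replicate 2 (98.8% to 99.6%), against 46.1% and 36.5% in SCC1 and 30.1% and 21.2% in SCC25. Unthinned, the shares were 99.9% and 99.9% in SCC6 and between 46.3% and 82.1% elsewhere. BIRC3 was found in 84.2% of thinned SCC6 cells of replicate 1 and 52.1% of replicate 2. The wider list of 19 BCL2 family and apoptosis inhibitor genes had 7 higher and 2 lower, of which 6 to 7 higher genes and 1 lower gene remained with 1 library left out. BID, which links death receptors to mitochondria, was at 417 and 354 CPM in SCC6, 141 and 147 in SCC1 and 140.4 and 138 in SCC25 (log2 1.42 and 1.47, larger FDR = 0.002), BIK at 38.0 and 41.7 CPM in SCC6, 7.28 and 8.57 in SCC1 and 15.6 and 13.7 in SCC25 and BBC3, or PUMA, at 58.9 and 23.3 CPM in SCC6, 10.0 and 8.80 in SCC1 and 10.4 and 9.71 in SCC25. HRK was lower at 1.22 and 0.623 CPM in SCC6, 8.62 and 6.07 in SCC1 and 5.34 and 5.67 in SCC25 (larger FDR = 0.002), and BAK1 was the lower gene whose call was lost without SCC1 replicate 1, SCC1 replicate 2, SCC6 replicate 1, SCC6 replicate 2, SCC25 replicate 1 or SCC25 replicate 2 (FDR up to 0.15).

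**Figure D4:**
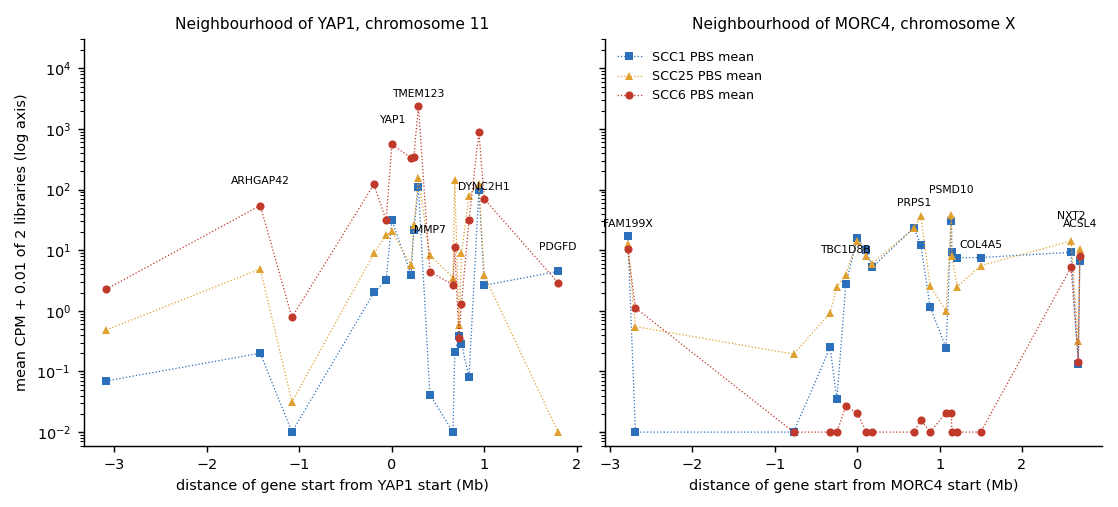
Levels of genes along the neighbourhoods of YAP1 and MORC4 in each line (mean CPM of the 2 PBS samples plus 0.01, log axis) by distance of the gene start from that reference gene in megabases. SCC6 lies above both lines at the 11 called genes around YAP1, but not at the matrix metalloproteinase genes or PDGFD, and falls to the floor over the run that starts near MORC4.

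The opposite pattern was found on the long arm of the X chromosome. Among genes above 1 CPM in both other lines, 11 that follow one another over chrX:106802673-108697545 (GRCh38.p14) had 0 to 3 UMIs each in the SCC6 PBS samples together. They were TBC1D8B, MORC4, RBM41, NUP62CL, PRPS1, TSC22D3, MID2, PSMD10, ATG4A, COL4A6 and COL4A5. PRPS1, which makes the precursor of nucleotides, had 0 UMIs in SCC6, 4194 in SCC1 and 4369 in SCC25, at least 1448.4-fold lower than SCC1 and 1412.6-fold lower than SCC25, with the floor of 3 counts over both SCC6 samples. PSMD10, a proteasome chaperone, had 2 UMIs in SCC6 against 5370 and 7161, a ratio of 2781.8 (95% interval 770.1 to 22969.9) for SCC1 over SCC6 and 3473.1 (95% interval 961.5 to 28678.4) for SCC25 over SCC6, counting error only. COL4A5, a collagen chain of basement membranes, had 0, 1284 and 1026 UMIs, at least 443.4-fold and 331.7-fold lower in SCC6. Directly before the run, and low in at least 1 other line too, CXorf57 had 0 UMIs in SCC6, 43 in SCC1 and 167 in SCC25, RNF128 had 0, 5 and 471 and MUM1L1 0, 0 and 34, so where the silent stretch begins was not resolved. Further out, FAM199X had 1871 UMIs in SCC6 on that side, and NXT2 943 and ACSL4 1460 on the other. Each gene of the run also had at most 2 UMIs in each cetuximab sample of SCC6. In all, 60 of 10968 genes above 1 CPM in both other lines had at most 3 UMIs in SCC6 (0.547%), against 72 (0.649%) for SCC1 and 21 (0.194%) for SCC25, so the number of silent genes did not set SCC6 apart. The longest run was 11 in SCC6, 6 in SCC25, where MX1 is a member, and none of 3 or more was found in SCC1.

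Around the tumour suppressor CDKN2A on the short arm of chromosome 9 (chr9:21967752-21995324), silent genes alternated with expressed ones. CDKN2A, which encodes p16, had 0 UMIs in SCC6, 18656 in SCC1 and 79 in SCC25, at least 6442.8-fold and 25.5-fold lower in SCC6. At 110 and 103 CPM in SCC1, CDKN2A was under 1 CPM in SCC25 too (0.424 and 0.42), so its absence was not particular to SCC6. CDKN2B, which encodes p15, had 1, 3337 and 6072 UMIs, a ratio of 3457.3 (95% interval 620.5 to 136555) for SCC1 over SCC6. HACD4, an enzyme of long-chain fatty acid synthesis, had 0, 3214 and 4536 UMIs. Between them MTAP, which recycles methionine, was higher in SCC6 at 44.6 and 43.2 CPM in SCC6, 18.3 and 19.97 in SCC1 and 9.14 and 8.49 in SCC25, a call that was lost without SCC1 replicate 1 (FDR up to 0.069). KLHL9 had 961 UMIs in SCC6 and was not called. CCND2, a D-type cyclin of another chromosome, was also near absent, at 0.0115 and 0.0422 CPM in SCC6, 34.4 and 26.7 in SCC1 and 27.7 and 22.5 in SCC25 (larger FDR = 3.6e-05), whereas CDKN2D, which encodes p19, was higher at 75.2 and 67.0 CPM in SCC6, 21.8 and 19.6 in SCC1 and 24.2 and 22.7 in SCC25 (log2 1.78 and 1.60, larger FDR = 0.0014). Of 24 cyclin and inhibitor genes, these 4 were called, 1 higher and 3 lower.

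The HOX genes, transcription factors that mark position along the body axis, formed the other run. HOXD13, HOXD10 and HOXD9 had 0 UMIs in SCC6 and HOXD11 had 3. HOXD9 was at 4.16 and 3.07 CPM in SCC1 and 7.93 and 6.13 in SCC25, at least 214.5-fold and 419.4-fold above SCC6, and HOXD11 at 0.0230 and 0.0106 CPM in SCC6, 25.8 and 23.9 in SCC1 and 24.8 and 19.3 in SCC25. HOXB3 had 0 UMIs in SCC6 and was at 1.54 and 1.11 CPM in SCC1 and 4.22 and 2.83 in SCC25, at least 78.4-fold and 208.6-fold higher there. HOXB13 was at 0.0804 and 0.0106 CPM in SCC6, 5.02 and 5.11 in SCC1 and 1.83 and 2.16 in SCC25 (larger FDR = 0.00053). Of 36 HOX genes tested, 16 were lower and 1 higher (medians -0.84 and -1.96), and 13 to 16 of the lower genes remained with 1 library left out. The lower genes came from each of the HOXA, HOXB, HOXC and HOXD clusters. The 1 higher gene, HOXA4, was at 16.5 and 13.5 CPM in SCC6, 7.76 and 8.05 in SCC1 and 6.87 and 7.31 in SCC25, and its call was lost without SCC1 replicate 1, SCC1 replicate 2 or SCC6 replicate 1 (FDR up to 0.15) and with library totals.

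Called genes were spread unevenly over the chromosomes. Of 15178 tested genes with a position, 8.62% were higher and 8.87% lower. On chromosome 19, 330 of 1114 genes were higher (29.6%) and 43 lower (3.86%), with medians of 0.91 against SCC1 and 0.73 against SCC25 and of -0.14 for SCC1 against SCC25. The share was similar on its short and long arm sides (27.4% and 31.4%) and in zinc finger genes (74 of 235, 31.5%) and the other genes (256 of 879, 29.1%), while of 278 zinc finger genes elsewhere 17 were higher (6.12%). Among genes at 5 CPM or more in a line the share on chromosome 19 was 33.1%. Scaled by library totals, 240 of the 330 kept their call. With 1 library left out 197 to 267 did (199 and 197 without SCC1 replicate 1 and 2, and 218 without SCC6 replicate 1). Ribosomal protein genes, which took a larger share of UMIs in SCC6, are in part on this chromosome, and their part was not tested.

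Chromosome 22 had 71 of 360 genes higher (19.7%). Chromosome 20 was split, with 39 of 131 genes lower on the short arm side (29.8%) and 65 of 280 higher on the long arm side (23.2%). The X chromosome had 81 of 283 genes lower on its long arm side (28.6%) against 14 of 205 on its short arm side (6.83%), and the 11 genes of the silent run are among the former. On chromosome 18, 14 of 58 genes of the short arm side were lower (24.1%). With 1 library left out, 39 to 56 of the 71 higher genes of chromosome 22 remained (39 without SCC6 replicate 1, 43 and 44 without SCC1 replicate 1 and 2). Of the 95 lower genes of the whole X chromosome 49 to 79 remained (49 without SCC6 replicate 1, 57 to 58 without either SCC1 replicate or SCC6 replicate 2). On chromosome 20, 41 to 53 of the 69 higher genes remained, with 43 or fewer without either SCC1 replicate or SCC6 replicate 1. There 28 to 44 of the 53 lower genes remained, with 33 or fewer without any of the SCC1 and SCC6 libraries. Of the 32 lower genes of chromosome 18, 18 to 28 remained, with 21 or fewer without any of those libraries. Neighbouring genes are not independent of each other, and no test was made of these shares.

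**Figure D5:**
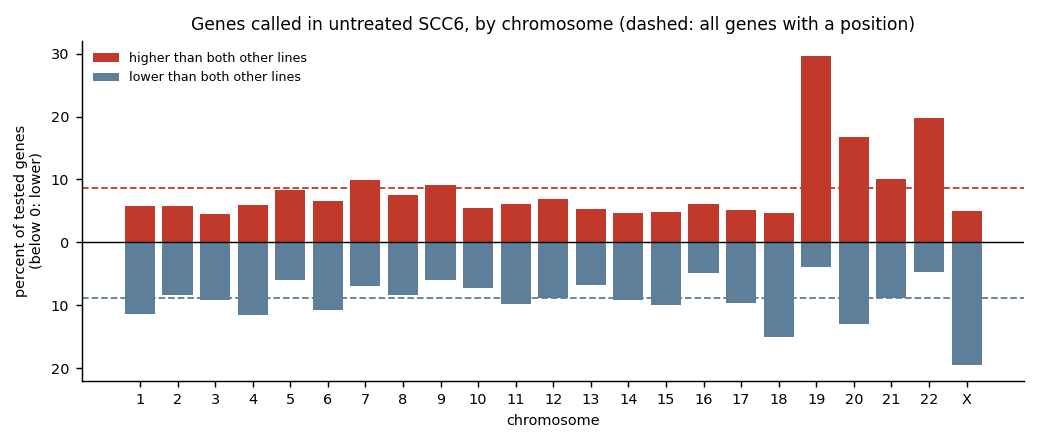
Percent of tested genes called higher and lower in SCC6 PBS than in both other lines, by chromosome (1 pair of bars each), with the shares over all genes with a position, 8.62% and 8.87%, as lines. Chromosomes 19, 22 and 20 stand out for higher genes (29.6%, 19.7% and 16.8%), and X and 18 for lower genes (19.5% and 15%).

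The genes raised most included several of other functions. ADGRF1, an adhesion G protein-coupled receptor, was at 67.3 and 50.3 CPM in SCC6, 1.35 and 2.20 in SCC1 and 0.992 and 2.27 in SCC25, with log2 fold changes of 5.04 ± 0.49 against SCC1 and 5.16 ± 0.49 against SCC25 (larger FDR = 0.00031). PLAC8 was at 70.3 and 77.8 CPM in SCC6, 4.99 and 4.11 in SCC1 and 2.48 and 4.26 in SCC25, with log2 fold changes of 4.02 ± 0.33 against SCC1 and 4.46 ± 0.34 against SCC25 (larger FDR = 0.00015). UPK3B, an uroplakin of urothelium and mesothelium, was at 102 and 52.3 CPM in SCC6, 2.50 and 1.81 in SCC1 and 3.38 and 7.51 in SCC25, with log2 fold changes of 5.17 ± 0.54 against SCC1 and 3.82 ± 0.50 against SCC25 (larger FDR = 0.0012). CALB2, or calretinin, a calcium buffer of neurons and mesothelium, was at 25.02 and 27.6 CPM in SCC6, 0 and 0.190 in SCC1 and 0.339 and 0.115 in SCC25. It was 1 of 10 genes with a mean of 20 CPM or more in SCC6 and a mean under 1 CPM in both other lines. Of the others, LDOC1 at 23.9 and 25.1 CPM and ZSCAN18 at 36.1 and 21.6 CPM had no UMI in SCC1 or SCC25, which makes LDOC1 at least 1434.6-fold and 1532.3-fold and ZSCAN18 at least 1670.1-fold and 1783.8-fold higher. PLIN2, which coats lipid droplets, was at 32.7 and 34.4 CPM in SCC6, 0.691 and 1.17 in SCC1 and 0.399 and 0.659 in SCC25, PODXL2 at 28.4 and 36.1, TMEM139 at 26.5 and 39.1, and the noncoding RNAs LINC00665 at 31.9 and 49.6 and AP001527.2 at 19.2 and 31.2 CPM in SCC6. HSPA6, a heat shock protein, belonged to the group through SCC6 replicate 1 only, at 78.3 and 0.296 CPM in SCC6, 0.0664 and 0.0200 in SCC1 and 0.254 and 0.525 in SCC25, and its call was lost without SCC1 replicate 2, SCC6 replicate 1, SCC25 replicate 1 or SCC25 replicate 2 (FDR up to 0.72) and with the replicate block (FDR = 0.11).

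At the other end, 22 genes had a mean of 20 CPM or more in both other lines and a mean under 1 CPM in SCC6, and all 22 were also called lower among cetuximab samples. MT1E, a metallothionein that binds zinc and copper, was at 0.0460 and 0.0844 CPM in SCC6, 758 and 675 in SCC1 and 334 and 210 in SCC25, with log2 fold changes of -13.38 ± 0.50 against SCC1 and -11.98 ± 0.48 against SCC25 (larger FDR = 3.3e-05). Metallothionein genes are near copies of each other, so counting between them is uncertain, and none of the other 6 tested was called. LINC00958, a noncoding RNA, was at 0.414 and 0.750 CPM in SCC6, 55.8 and 47.9 in SCC1 and 104 and 66.6 in SCC25, with log2 fold changes of -6.47 ± 0.42 against SCC1 and -7.19 ± 0.44 against SCC25 (larger FDR = 6.8e-05). RAB38, a GTPase of lysosome-related organelles, was at 0.0689 and 0.0950 CPM in SCC6, 23.7 and 24.9 in SCC1 and 26.5 and 35.4 in SCC25 and RAMP1, a partner of the calcitonin-like receptor, at 0.230 and 0.570 CPM in SCC6, 39.8 and 54.1 in SCC1 and 69.0 and 66.1 in SCC25. ACP5, COL9A3, COPZ2, MLLT11 and CKMT1A belonged to the group too, as did PYCARD, CARD16, C1R, C1S, IFI27, IRF7, OAS2, KRT14, CCND2, HOXD11, PRPS1 and PSMD10.

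Just outside that group, WDR66 (named CFAP251 in RefSeq), a protein of motile cilia, was at 0.609 and 1.43 CPM in SCC6, 143 and 142 in SCC1 and 144 and 124 in SCC25, with log2 fold changes of -7.12 ± 0.46 against SCC1 and -7.04 ± 0.46 against SCC25 (larger FDR = 8.2e-05). RARRES3 (PLAAT4), a phospholipase induced by retinoids, was at 1.77 and 1.01 CPM in SCC6, 113 and 135 in SCC1 and 49.6 and 118 in SCC25, with log2 fold changes of -6.48 ± 0.55 against SCC1 and -5.91 ± 0.53 against SCC25 (larger FDR = 0.00024). NUPR1, a chromatin protein induced by stress, was at 3.41 and 3.71 CPM in SCC6, 95.1 and 83.6 in SCC1 and 252 and 319.5 in SCC25, with log2 fold changes of -4.65 ± 0.26 against SCC1 and -6.33 ± 0.28 against SCC25 (larger FDR = 4.6e-05). All 3 were at 3.71 CPM or less in SCC6 and at 49.6 CPM or more elsewhere.

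Among metabolic lists, genes of glycolysis and hypoxia were more often lower than all genes tested (22.5% against 8.8%). Of 40 glycolysis and hypoxia genes, 9 were lower and 1 higher (medians -0.48 and -0.42). EGLN3, an oxygen-sensing hydroxylase, was at 0.0345 and 0.127 CPM in SCC6, 54.9 and 43.4 in SCC1 and 3.897 and 4.80 in SCC25 (larger FDR = 0.00019) and BNIP3, a mitophagy receptor, at 35.1 and 30.2 CPM in SCC6, 272 and 189.7 in SCC1 and 170.4 and 137 in SCC25 (log2 -2.82 and -2.24, larger FDR = 0.00086). Between 4 and 7 of the 9 remained with 1 library left out (4 without SCC1 replicate 2, 5 without either SCC6 replicate), and the block gave 13 lower and 4 higher. Of 33 sterol and fatty acid synthesis genes, 5 were higher (15.2%, against 8.3% of all genes tested) and 2 lower (6.1%), with medians of 0.09 and 0.89. Against SCC1 alone 7 were higher and 3 lower, and against SCC25 alone 17 were higher and 3 lower, so the list differed mainly from SCC25. SQLE, an oxygenase of sterol synthesis, was at 259 and 287 CPM in SCC6, 99.9 and 104 in SCC1 and 40.9 and 26.1 in SCC25 and its regulator SREBF2 at 34.6 and 26.7 CPM in SCC6, 11.1 and 10.98 in SCC1 and 11.03 and 10.9 in SCC25 (larger FDR = 0.0053 and 0.0028). Of these 5 genes 3 to 5 remained with 1 library left out (3 without SCC1 replicate 1), and the block gave 11 higher.

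Among genes of retinoid and aldehyde metabolism, 4 of 29 were higher and 4 lower. STRA6, the receptor for retinol-binding protein, was at 25.2 and 22.96 CPM in SCC6, 0.266 and 0.110 in SCC1 and 0.484 and 0.897 in SCC25 (larger FDR = 0.00023), and LCN2, a secreted carrier of siderophores, at 1759 and 944 CPM in SCC6, 28.1 and 44.2 in SCC1 and 80.4 and 242 in SCC25 (log2 5.22 and 3.07, larger FDR = 0.0053). RARB, a retinoic acid receptor, was lower at 0.0115 and 0.0950 CPM in SCC6, 1.75 and 1.28 in SCC1 and 2.18 and 2.81 in SCC25 (larger FDR = 0.0014). Of the lower genes 2 to 4 remained with 1 library left out (2 without SCC6 replicate 2). Of 19 prostaglandin and leukotriene genes, 4 were higher and 2 lower. PTGES, which makes prostaglandin E2, was at 373 and 262 CPM in SCC6, 7.598 and 9.32 in SCC1 and 63.3 and 97.6 in SCC25 (log2 5.23 and 1.98, larger FDR = 0.0025), and ALOX5, the first enzyme of leukotriene synthesis, at 7.36 and 4.87 CPM in SCC6, 0 and 0.01 in SCC1 and 0.0363 and 0.0764 in SCC25 (larger FDR = 0.00015), while PTGS1 was at 0.379 and 0.380 CPM in SCC6, 2.70 and 4.42 in SCC1 and 135 and 235 in SCC25 (larger FDR = 0.00084).

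Targets of NRF2, the factor of the oxidative stress response, were mostly not called, with 4 of 45 higher and 0 lower against a background of 8.32% higher. AKR1B1, an aldose reductase, was at 732 and 1212 CPM in SCC6, 179 and 269 in SCC1 and 33.6 and 59.0 in SCC25 (log2 2.12 and 4.39, larger FDR = 0.0048). Of 16 S100 genes, 5 were higher and 2 lower, with S100A2 at 939.7 and 743 CPM in SCC6, 4300.5 and 4134 in SCC1 and 3557 and 3161 in SCC25 (log2 -2.33 and -2.00, larger FDR = 0.00074). Of the 5 higher S100 genes 2 remained without SCC1 replicate 2 or SCC6 replicate 1, and 3 without SCC1 replicate 1 or SCC25 replicate 1. Of 45 genes of G2 and mitosis 4 were higher (1 with library totals, and 1 without SCC1 replicate 1, SCC1 replicate 2, SCC6 replicate 2 or SCC25 replicate 2), among them UBE2C at 637 and 919 CPM in SCC6, 246 and 299 in SCC1 and 338 and 362 in SCC25, and of 41 S-phase genes 1 was lower. Against SCC1 alone 7 S-phase genes were lower and 0 higher, and against SCC25 alone 11 were higher and 1 lower.

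The differences between lines held cell by cell. The 15 most raised genes made up a median of 0.924% and 0.839% of the UMIs of an SCC6 cell and 0.02% to 0.028% in the other samples. The 15 most lowered genes made up 0.00201% and 0.00195% in SCC6 and 0.637% to 1.09% elsewhere. Every SCC6 cell (2731 and 2486) held more UMIs of the raised than of the lowered genes, as did 0 SCC1 cells and 1 cell in each SCC25 sample. These genes were chosen for their difference between the same samples, so the separation is a description. Thinned to 15000 UMIs, which left out 26 to 130 shallower cells per sample, KRT81 was found in 99.3% and 99.7% of SCC6 cells, 0.905% and 1.34% of SCC1 cells and 24.1% and 17.7% of SCC25 cells. IFI27 was found in 0.641% of SCC6 cells of replicate 1 (95% exact interval 0.374% to 1.02%) and 0.739% of replicate 2 (0.438% to 1.17%), and KRT14 in 0.792% and 0.452%. Unthinned, the IFI27 shares were 1.87% and 1.93%. PTPRC, which epithelium should lack, had a UMI in 0 of 2731 and 0 of 2486 SCC6 cells, which allows up to 0.11% and 0.121% of cells with a PTPRC UMI and does not bound the share that express the gene. Intervals and limits cover counting error only, and free RNA or a doublet can place a UMI in any cell.

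The SCC6 replicates were not alike at every gene. Of 2600 genes with a mean of 50 CPM or more, 163 differed more than 2-fold between them (6.27%), against 34 of 2619 in SCC1 (1.3%) and 235 of 2609 in SCC25 (9.01%). Of the 163 genes 91 were higher in replicate 2. The 5 largest ratios of replicate 1 to replicate 2 were as follows. DDIT3, a factor of the unfolded protein response, was at 254 CPM in replicate 1 and 24.6 in replicate 2, GDF15 at 529 and 75.1, HBEGF at 141 and 22.7, BIRC3 at 568 and 95.5, and AREG at 594 and 125. In the other direction, TUBB4B, a tubulin, was at 230.6 and 1033 CPM, the mitochondrial ribosome gene MRPL13 at 72.4 and 279.9, the respiratory chain gene UQCRB at 228 and 831, LSM3 at 74.9 and 272 and CCNB1, a mitotic cyclin, at 103 and 336. With 1 sample of each kind, these differences were not tested. GDF15, BIRC3 and HBEGF, which were called higher in SCC6, kept both replicates above all samples of the other lines.

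The differences were set beside the same comparison among samples given cetuximab, which shares no library with the one above. There 1679 of 17216 genes were higher in SCC6 than in both other lines (9.75%) and 1612 were lower (9.36%). Of the 1433 genes higher with PBS, 950 were also higher with cetuximab (66.3% of the PBS list and 56.6% of the cetuximab list), and of the 1518 lower genes 1055 were also lower (69.5% and 65.4%), while none was called the opposite way. Among the 30 genes ranked first, BIRC3 and KRT13 were not called with cetuximab. BIRC3 had 2621 and 2336 UMIs in the cetuximab samples of SCC6 against 49407 and 9046 with PBS.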

How the data were processed

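Single cells of 3 HNSCC lines given PBS or cetuximab were sequenced. The deposited files hold counts of UMIs per gene and cell, which the authors made with Cell Ranger on GRCh38 (version not given in the sources used here). Every deposited cell was used and no doublet caller was run. UMIs were summed per sample over 33514 symbols.

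The 6 PBS samples were fitted with a mean per line in edgeR 4.0.16 (R 4.3.3; quasi-likelihood test, TMM factors of 0.867 to 1.2, filterByExpr), adjusting over 17229 genes. A gene was called at FDR under 0.05 against each other line with 1 sign. Named genes were the 15 per direction with the largest smaller log2 fold change, at a mean of 50 CPM or more (in SCC6, or in both other lines), and called or defining members of gene lists, with sex-linked marker genes left out. The members and lists were chosen with earlier results of these data known. The fit was tested on simulated data. Same-numbered replicates deviated together (correlations of 0.296, 0.277 and 0.453 between lines), a pairing seen in the data and not stated in the labels, so a fit with the replicate as a block was an alternative, as were DESeq2 1.42.0, other filters, cells and depths, and each library left out. Cetuximab samples were fitted separately. Positions and promoters came from RefSeq on GRCh38.p14, in which 22312 symbols matched by symbol and 857 by synonym. Cell shares were computed after thinning to 15000 UMIs. The results of some genes are not reported here.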

Additional observations from a re-analysis of the deposited data

How the results depend on the processing

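The 30 genes ranked first kept their direction and their side of the threshold under each of 17 alternatives (510 values in all). With the replicate block, 2304 genes were higher in SCC6 than in both other lines, and 1431 of the 1433 and 1513 of the 1518 calls remained. Among the named genes it ended the call of HSPA6, added calls of TP63 and IFIT1 as lower, and changed no other call. Against the mean of the other lines in place of each line, 3372 were higher and 2829 lower. With 1 library left out, its line's remaining sample being taken to vary like the others, 853 to 1248 genes were higher and 907 to 1388 lower, and 3542 to 6781 differed from SCC1 and 4306 to 5514 from SCC25. Among left-out libraries, the counts moved by over 1.5 times without SCC1 replicate 1 (853 higher, 979 lower, 3542 against SCC1), without SCC1 replicate 2 (853, 971 and 3571) and without SCC6 replicate 1 (925 higher, 907 lower). The higher count with the replicate block and both counts against the mean of the other lines also moved by over 1.5 times. DESeq2's test gave 1556 higher and 1632 lower, DESeq2 size factors 1421 and 1536, no filter on low counts 1809 and 1711, all 12 samples in 1 fit 1702 and 1735, totals thinned to the smallest 1340 and 1416, and a 2-fold minimum 1178 and 1287. Cells with over 20% mitochondrial UMIs or the 5% with most UMIs left out gave 1429 and 1508, and 1344 and 1446. With library totals (added after seeing the data; 1023 higher and 1994 lower) 1017 of the higher and 1517 of the lower genes remained. A count of 0 in a line allows up to 3 UMIs, so folds against it are lower bounds, and 2 samples per line leave 3 residual degrees of freedom.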

Other observations

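Several single genes outside the groups above were also called, where 8.3% of all genes tested were higher and 8.8% lower. Of 17 imprinted and oncofetal genes, 2 were higher and 2 lower (11.8% each). NDN, an imprinted gene of neurons, was at 7.49 and 11.98 CPM in SCC6 and had no UMI in SCC1 or SCC25, at least 574.9-fold and 614.1-fold higher, while MEST, another imprinted gene, was lower at 0.586 and 3.23 CPM in SCC6, 43.2 and 43.1 in SCC1 and 27.7 and 44.2 in SCC25 (edgeR larger FDR = 0.0036). The cancer germline antigen MAGEA12 was at 3.21 and 3.92 CPM in SCC6, 0.0133 and 0.01 in SCC1 and 0.0121 and 0 in SCC25 (larger FDR = 0.00012), and members of this family are near copies, so counting between them is uncertain. Of 8 germline antigens tested, 3 were higher (37.5%) and 1 lower (12.5%). TINCR, a noncoding RNA of keratinocyte differentiation, was at 26.3 and 24.6 CPM in SCC6, 6.48 and 7.81 in SCC1 and 3.17 and 4.26 in SCC25 (log2 1.83 and 2.78, larger FDR = 0.0016), and PVT1 at 62.8 and 45.7 CPM in SCC6, 19.5 and 17.2 in SCC1 and 23.7 and 17.0 in SCC25 (larger FDR = 0.0064).

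Among proteases, CTSB, a lysosomal cathepsin, was lower at 53.1 and 49.2 CPM in SCC6, 197 and 262 in SCC1 and 193 and 402 in SCC25 (log2 -2.17 and -2.54, larger FDR = 0.0034). Of 34 matrix proteases and inhibitors tested, 2 were higher and 3 lower, with 1 higher gene left without any single library but SCC25 replicate 2, or with library totals. RNF43, which removes WNT receptors from the surface, was at 0.620 and 0.697 CPM in SCC6, 4.95 and 3.37 in SCC1 and 5.14 and 2.72 in SCC25 (larger FDR = 0.0027), and PDPN, or podoplanin, at 3.68 and 5.94 CPM in SCC6, 22.1 and 25.2 in SCC1 and 82.9 and 79.6 in SCC25 (larger FDR = 0.00092). CCNG1, a cyclin induced by p53, was at 56.5 and 55.5 CPM in SCC6, 11.6 and 15.5 in SCC1 and 14.9 and 22.6 in SCC25 (larger FDR = 0.0046), and 4 of 29 p53 targets were higher (13.8%) and 1 lower (3.4%). On the long arm of chromosome 3, LRRC34 was at 0 and 0.0106 CPM in SCC6, 3.95 and 4.76 in SCC1 and 2.49 and 2.47 in SCC25, and 2 of 30 genes of the stretch that holds TP63, SOX2 and PIK3CA were lower.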
